A study of Homo sapiens with 10 samples.

Results

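Nucleotide excision repair removes bulky lesions that distort the DNA helix. The damage is recognised, the helix is opened by the TFIIH complex, the damaged strand is cut on either side and the gap is filled by replication enzymes, while translesion polymerases let replication pass lesions that remain. Several genes at the entry of this pathway, and some that act beside it, are known targets of p53, the transcription factor that is stabilised when DNA is damaged. The genes described here are 9 repair and bypass genes of the 32738 genes in the deposited count tables, found by symbol. The first group holds 4 p53-induced genes. XPC and DDB2 encode damage sensors, POLH encodes the translesion polymerase eta, and GADD45A encodes a stress protein that binds PCNA. The second group holds 5 other genes. XPA encodes a scaffold that helps verify damage, ERCC2 and ERCC3 encode the helicases of TFIIH (XPD and XPB), and ERCC1 and ERCC5 encode parts of the nucleases that make the incisions (ERCC5 is also called XPG).

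The cells were HCT-116, an established human colon cancer line, and no further genotype is given in the sources used here. Single-cell RNA sequencing was done on 2 untreated libraries and on 2 libraries of cells given 200 nM doxorubicin (DOX), a drug that intercalates into DNA and traps topoisomerase II, for 24 h and left without it for 6 d. Another 6 samples, bulk mRNA of the same conditions, were not analysed here. Each barcode stands for 1 droplet and each unique molecular identifier (UMI) for 1 captured mRNA molecule. Barcodes with at least 20000 UMIs and less than 8% of them from mitochondrial genes are called deep barcodes.

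There were 3572 deep barcodes of 4701 in untreated replicate 1 and 2137 of 2528 in untreated replicate 2. In DOX replicates 1 and 2 there were 1307 and 1080, each of 8000, a number of barcodes that the authors forced. The comparisons of deep barcodes thus cover a minority of the DOX barcodes. The deep barcodes held 91.8% and 95.05% of the UMIs of the untreated libraries but 64.9% and 60.02% of the UMIs of the DOX libraries. The limits thus left out more of the DOX material. Median depth lay between 72676 and 84829.5 UMIs in all 4 libraries, and between 0 and 2 deep barcodes were shared by any pair of libraries. Counts were summed per library and written as UMIs per 1000000 UMIs (CPM), while log2 fold changes are also scaled by TMM factors, explained with XPC. The sums were compared with edgeR's quasi-likelihood test, 2 libraries against 2, with Benjamini-Hochberg adjusted p-values over all genes tested and a threshold of 0.05. The sources do not say whether replicates came from separate cultures, so p-values measure the spread between these libraries, which may be technical. The 9 genes had between 535 and 18599 UMIs per library. CDKN1A, which encodes the cell cycle inhibitor p21 and is a p53 target, was at 29.1 and 29.3 CPM in the untreated and at 281 and 240 CPM in the DOX libraries. Of the 7 colon epithelial markers KRT8, KRT18 and KRT19 were the highest, while CDX1 and VIL1 were near 0. The list summed to 3542 to 3914 CPM in untreated and 5824 to 6137 CPM in DOX libraries. Of 6 markers tested 4 were called higher and 1 lower, against 28.2% of all genes higher and 26.4% lower. The lower one was EPCAM, at 376 and 324 CPM without and 299 and 312 CPM with DOX. The 7 markers of blood, connective tissue and vessel cells found in the tables summed to 5.57 and 5.78 CPM in untreated and 8.99 and 10.3 CPM in DOX libraries, and COL1A2 was at 0 in all 4. Of these markers 5 were tested, and 4 were called higher and 0 lower.

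The genes lie on 8 chromosomes of GRCh37. XPC is at chr3:14186647-14220121 on the minus strand, DDB2 at chr11:47236016-47260768 on the plus strand, POLH at chr6:43543922-43588260 on the plus strand and GADD45A at chr1:68150884-68154017 on the plus strand. Of the others, ERCC1 (chr19:45910592-45982086) and ERCC2 (chr19:45853095-45874176) are both on the minus strand, XPA is at chr9:100437191-100459622 and ERCC3 at chr2:128014866-128051742, both minus, and ERCC5 is at chr13:103498181-103528345 on the plus strand. The annotation also holds a readthrough gene, BIVM-ERCC5, that overlaps ERCC5 on the same strand and has its own row in the tables. The ERCC5 count may therefore not hold all reads of that gene, and ERCC5 is uncertain. Genes on the opposite strand overlap XPC, DDB2, POLH, ERCC1 and ERCC2, and whether the counting used strand is not given in the sources used here. BIVM-ERCC5 was at 0.415, 0.472, 0.770 and 0.743 CPM in untreated replicates 1 and 2 and DOX replicates 1 and 2. BIVM, the other gene in its name, was at 5.71, 5.82, 7.17 and 6.70 CPM in the same order.

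The p53 response element was searched as 2 half-sites of 10 bases, each with a fixed core of 4 bases, apart by 0 to 10 bases and with at most 1 mismatch outside the cores, from 2000 bases before to 4000 bases after the start of each gene's canonical transcript. The motif reads the same on both strands, so overlapping matches were counted once. Such a match was found at 947 of 19165 genes searched (4.94%), and 102 genes (0.532%) had one with no mismatch. Among the 9 genes, 2 of the 4 p53-induced and 1 of the 5 others held a match. All matches found among the 9 genes are shown, and any link between a match and a change in level was not tested. Capitals mark the cores of the half-sites.
DDB2, chr11:47236530-47236550, plus strand, in exon 1 and 5 bases after the start, no mismatch: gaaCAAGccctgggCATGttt
GADD45A, chr1:68152458-68152477, plus strand, in intron 3 and 1574 bases after the start, 1 mismatch: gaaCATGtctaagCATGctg
ERCC3, chr2:128050744-128050765, minus strand, in intron 2 and 955 bases after the start, 1 mismatch: agaCATGttcggtagCAAGctt
Each is a match of letters and no more. For XPC, POLH, XPA, ERCC1, ERCC2 and ERCC5 these letters were not in the window.

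The first comparison asked how the 9 genes differed between DOX and untreated cells. GADD45A, DDB2 and POLH rose, XPC did not pass the test, and of the other 5 genes ERCC5 rose, ERCC3 fell and XPA, ERCC1 and ERCC2 did not pass. Thus 4 members were called higher, against 28.2% of all genes called higher, and 1 member lower, against 26.4% called lower. In either direction 54.6% of 21563 genes were called, so a call by itself set no member apart from the rest. The p53-induced genes had a median log2 fold change of 0.40 and the others one of -0.09, beside 0.04 for all genes tested.

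GADD45A had the largest change of the 9. It was at 40.8 and 38.4 CPM in the untreated libraries and at 97.3 and 92.5 CPM in the DOX libraries. The DOX libraries lay above both untreated ones, and the log2 fold change was 1.09 (SE 0.075, edgeR adjusted p = 1.1e-05). DDB2, whose product finds ultraviolet photoproducts as part of an E3 ubiquitin ligase, was at 33.9 and 32.8 CPM without and 51.4 and 54.1 CPM with DOX. Both DOX libraries lay above both untreated ones, with a log2 fold change of 0.49 (SE 0.066, edgeR adjusted p = 3.3e-04). POLH was at 23.0 and 26.5 CPM without and at 33.8 and 34.6 CPM with DOX. This was a rise of 0.31 on the log2 scale (SE 0.061, edgeR adjusted p = 0.0027).

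XPC was at 35.8 and 41.5 CPM in the untreated and 47.4 and 47.5 CPM in the DOX libraries. The groups did not overlap, but the untreated replicates differed from each other, and the log2 fold change of 0.13 (SE 0.061) missed the threshold (edgeR adjusted p = 0.10). The XPC call depended on the scaling and on 1 library, and was made in 2 of 15 alternatives. Without untreated replicate 2 the log2 fold change of XPC was 0.18 (adjusted p = 0.020), and 7 members in place of 5 were called. TMM factors, which rescale libraries to the bulk of the genes, were 0.912 and 0.977 for the untreated and 1.05 and 1.07 for the DOX libraries. With library size alone XPC was 0.30 higher on the log2 scale (adjusted p = 0.0031), and the median of all genes moved up by 0.168 to 0.21. Of all calls, 51.6% were higher with TMM and 72.2% with library size alone, so the changes here are relative to the bulk of the genes.

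Among the other members ERCC3 was at 33.1 and 35.5 CPM without and 29.9 and 30.6 CPM with DOX. Both DOX libraries were below both untreated ones, and the gene fell by 0.35 on the log2 scale (SE 0.055, edgeR adjusted p = 7.6e-04). ERCC5 was the sparsest member, at 3.20 and 3.38 CPM without and 5.15 and 5.46 CPM with DOX, a log2 fold change of 0.52 (SE 0.083, edgeR adjusted p = 8.1e-04). The reading of ERCC5 as a gene of its own is limited by the readthrough gene at its locus. XPA was at 23.5 and 25.9 CPM without and 25.7 and 27.3 CPM with DOX. ERCC1, the obligate partner of the XPF nuclease, was at 63.8 and 60.2 CPM without and 63.4 and 68.0 CPM with DOX. ERCC2 was at 16.5 and 19.1 CPM without and 17.7 and 18.5 CPM with DOX. For all 3 genes the libraries of the conditions overlapped. The log2 fold changes of these 3 genes lay between -0.14 and -0.06 with adjusted p between 0.095 and 0.39, and all 3 turned positive with library size alone.

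**Figure D1:**
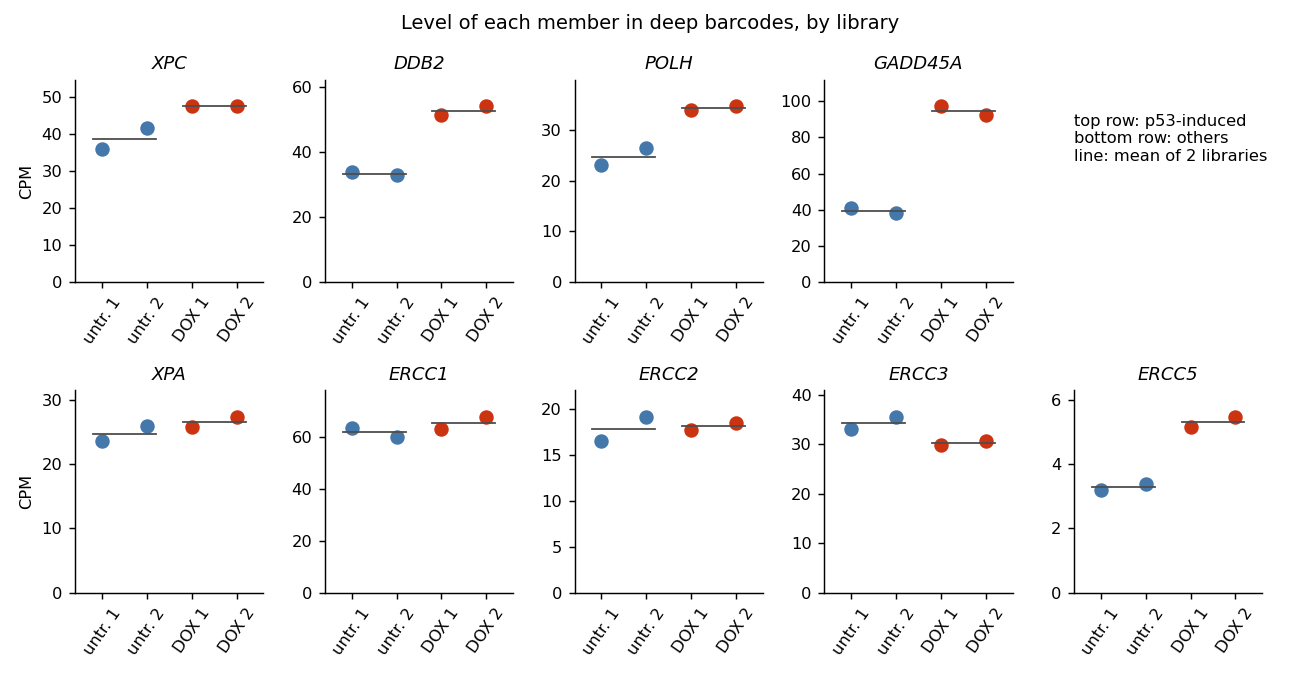
Level of each member in CPM over the deep barcodes of each library, with untreated libraries in blue and DOX libraries in red. Each point is 1 library, the line is the mean of 2, every axis starts at 0, and the top row holds the p53-induced genes. GADD45A went from 40.8 and 38.4 to 97.3 and 92.5 CPM, while the ERCC1 and ERCC2 libraries of the conditions overlapped.

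Put together, the 4 p53-induced genes summed to 133 and 139 CPM in untreated and 230 and 229 CPM in DOX libraries, whereas the 5 others summed to 140, 144, 142 and 150 CPM. The ratio of the first sum to the second was 0.953 and 0.967 in untreated libraries and 1.62 and 1.53 in DOX libraries. This ratio does not depend on the scaling of the libraries. It leans on GADD45A, which gave the largest part of the rise in the first sum. That gene went from 40.8 and 38.4 CPM without to 97.3 and 92.5 CPM with DOX. In the DOX libraries the 1% of deep barcodes with most GADD45A UMIs held 33.4% and 35.4% of them. With 2 libraries against 2, an exact permutation test cannot go below p = 0.33, and none was run.

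The share of barcodes in which each member was seen was compared next. Every deep barcode was thinned to 20000 UMIs so that depth could not set the shares. GADD45A then had a UMI in 48.9% (95% exact interval 47.2 to 50.5) and 46.3% of untreated and in 60.7% and 61.2% of DOX barcodes. DDB2 had one in 44.9% and 43.1% of untreated and 54.7% and 55.1% of DOX barcodes. XPC was found in 48.9% and 54.7% of untreated and in 54.1% and 54.9% of DOX barcodes, which overlapped. POLH was found in 36.6% and 37.8% without and 41.6% and 38.7% with DOX. On average over the 4 genes the share was 7.49 percentage points higher with DOX, and over the 5 other genes it was 0.254 points lower, less than the spread between libraries of 0.742 points. That small mean joined shifts in both directions. ERCC3 went from 48.0% and 50.4% without to 43.5% and 44.1% with DOX, and ERCC1 from 69.7% and 68.7% to 68.6% and 67.3%. XPA went from 37.7% and 38.5% to 40.4% and 42.1%, and ERCC5 from 6.58% and 7.02% to 8.95% and 10.4%. The ERCC2 shares overlapped. All 4 p53-induced genes were found together in 4.82% and 5.38% of untreated and 9.49% and 11.0% of DOX barcodes. None of them was found in 10.6% and 9.83% of untreated and 6.73% and 6.85% of DOX barcodes. Before thinning the p53-induced genes averaged 84.2% without and 87.0% with DOX, and intervals cover counting error only.

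GADD45A differed from the other members in how its UMIs were spread over barcodes. In the DOX libraries the 1% of deep barcodes with most GADD45A UMIs, 14 and 11 barcodes, held 33.4% and 35.4% of them, and single barcodes held up to 531 and 927. In the untreated libraries the top 1% held 11.1% and 11.4%. For the 8 other members in any library this share lay between 3.63% and 14.5%, and ERCC5, with 0 to 12 UMIs per barcode, gave the upper end. The median barcode held 2 and 3 GADD45A UMIs without and 3 and 4 with DOX. Without the top 1% the levels were 36.9 and 34.5 CPM in untreated and 65.7 and 60.7 CPM in DOX libraries, and the log2 fold change was 0.67 in place of 1.09 (SE 0.078, edgeR adjusted p = 9.3e-05). This setting was chosen after the values had been seen.

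The 14 and 11 barcodes with most GADD45A also differed in other genes. ATF3, a stress transcription factor, was at 1867 and 2763 CPM in them and at 30.2 and 25.6 CPM in the remaining deep barcodes of the DOX libraries. CDKN1A was at 1842 and 911 CPM against 260 and 230 CPM. XPC was at 151 and 106 CPM against 46.0 and 46.6 CPM, and DDB2 at 117 and 203 CPM against 50.5 and 52.0 CPM. XPA reached 80.2 and 89.8 CPM against 25.0 and 26.4 CPM, while ERCC2 was at 10.7 and 10.9 CPM against 17.8 and 18.6 CPM. Their median depth was 89262 and 128401 UMIs against 72656 and 84526, their mitochondrial share 4.18% and 3.33% against 5.24% and 5.52%, and their share of cell cycle UMIs 3215 and 2916 CPM against 9104 and 9140. These are sums over few barcodes that were ranked by GADD45A, so no test was made, and the part of depth was not tested.

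**Figure D2:**
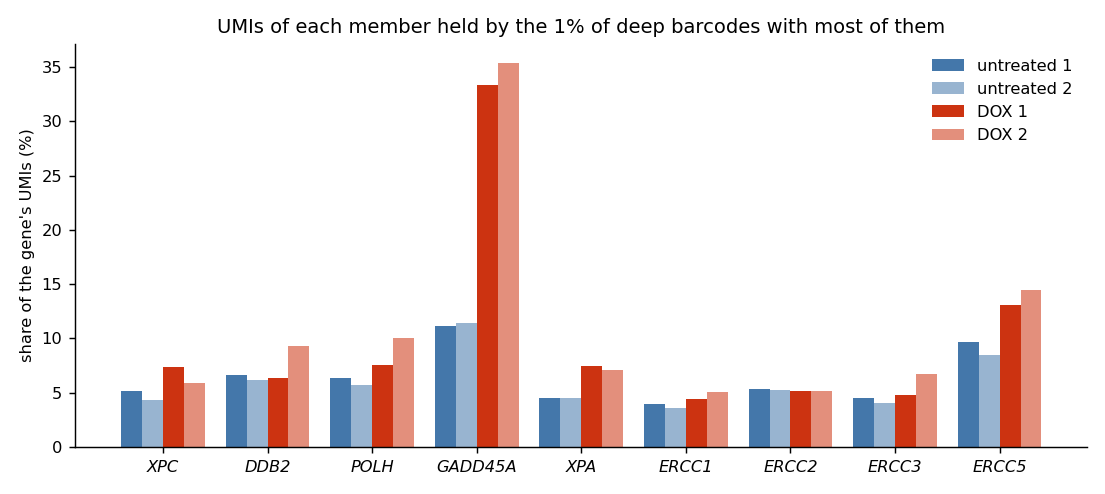
Share in percent of each member's UMIs that came from the 1% of deep barcodes with most UMIs of that gene, for each library. Bars start at 0, darker bars are replicate 1 and lighter bars replicate 2. GADD45A in the DOX libraries stands at 33.4% and 35.4%, against 11.1% and 11.4% in the untreated ones.

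The next comparison asked whether the differences held among barcodes in a like cell cycle state, since cell cycle genes made up fewer UMIs after DOX. Barcodes were parted by their share of UMIs in lists of S and G2/M genes, none of which is a member. The limit of 10484 CPM was the mean of the 25th percentiles of the untreated libraries. Above it lay the cycling barcodes, and at or below it the low-cycle barcodes, which were 25.8% and 24.1% of untreated and 67.8% and 69.3% of DOX deep barcodes. In the cycling class the conditions were close in cell cycle share, with medians of 12103 and 12158 CPM without and 11928 and 11944 with DOX. In the low-cycle class they were not, with medians of 9724 and 9643 without and 5663 and 7043 with DOX, so that class does not match like with like. The cycling class was close in the sum of both lists but not in phase. There 29 of 41 S phase genes were called lower with DOX, with a median log2 fold change of -0.32. Of 54 G2/M genes 2 were lower and 5 higher, with a median of 0.06. Of all genes 13.9% were lower and 13.5% higher.

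Among cycling barcodes GADD45A, DDB2 and POLH were higher and ERCC2 was lower with DOX, 4 members of the 9 against 27.5% of all genes called, 13.5% higher and 13.9% lower. GADD45A was at 35.9 and 34.6 CPM without and 64.9 and 58.9 CPM with DOX, a log2 fold change of 0.71 (SE 0.076, edgeR adjusted p = 3.9e-05), which was 0.34 without the 1% of barcodes with most GADD45A UMIs (adjusted p = 0.0068). DDB2 was at 32.7 and 31.9 CPM without and 52.2 and 55.7 CPM with DOX (log2 fold change 0.64, SE 0.070, edgeR adjusted p = 4.5e-05). POLH was at 23.6 and 27.2 CPM without and 30.8 and 33.1 CPM with DOX, a log2 fold change of 0.24 (SE 0.073, edgeR adjusted p = 0.030). The POLH call held in 9 of 16 alternatives. It was lost without DOX replicate 1 (adjusted p = 0.071) or DOX replicate 2 (0.26), under DESeq2 (0.069), after thinning (0.18), with a limit of 50000 UMIs (0.067), with the upper limits on barcodes from the study's methods (0.068) and with the cycle limit at the medians (0.16). ERCC2 was at 16.6 and 19.6 CPM without and 15.0 and 15.9 CPM with DOX, which was -0.32 on the log2 scale (SE 0.082, edgeR adjusted p = 0.012). With library size alone ERCC2 was at -0.22 and missed the threshold (adjusted p = 0.086), as it did after thinning (0.17), and the share of calls that were higher went from 49.3% to 73.1%. XPC, at 35.2 and 41.0 CPM without and 43.5 and 40.9 CPM with DOX, overlapped between the conditions, and so did ERCC5, at 3.32 and 3.52 CPM without and 3.32 and 4.38 CPM with DOX.

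In the low-cycle class 50.5% of all genes were called, 25.2% higher and 25.3% lower. There GADD45A, POLH, DDB2 and ERCC5 were higher and ERCC3 was lower, 5 members in all. GADD45A was at 56.1 and 52.7 CPM without and 112 and 107 CPM with DOX, POLH at 21.1 and 23.6 against 35.2 and 35.3 CPM, and DDB2 at 37.8 and 36.3 against 51.0 and 53.5 CPM. ERCC5 stood at 2.83 and 2.83 CPM without and 6.00 and 5.95 CPM with DOX, a log2 fold change of 0.89 (SE 0.11, edgeR adjusted p = 2.0e-04). ERCC3 was at 31.2 and 35.0 CPM against 28.6 and 29.1 CPM, or -0.38 on the log2 scale (SE 0.066, edgeR adjusted p = 0.0012). With library size alone ERCC3 missed the threshold (adjusted p = 0.057), and the share of calls that were higher went from 49.9% to 71.5%.

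The difference between the classes was tested as an interaction, low-cycle minus cycling, with each library as a block. It was called for 30.8% of all genes, 10.2% higher and 20.6% lower, and for 5 members. The DOX effect on DDB2 was smaller in low-cycle barcodes by 0.35 on the log2 scale (SE 0.054, edgeR adjusted p = 1.5e-04), the opposite order to POLH, whose effect was larger by 0.22 (SE 0.065, edgeR adjusted p = 0.017). ERCC5 had the largest difference, 0.80 (SE 0.16, edgeR adjusted p = 0.0013). For GADD45A the difference was 0.10 (SE 0.049, edgeR adjusted p = 0.16), and for XPC 0.04 (SE 0.060, edgeR adjusted p = 0.70). After thinning of every barcode to 20000 UMIs 0 members were called by edgeR, with adjusted p from 0.12 upward and 3 members at an unadjusted p under 0.05, beside 3289 of all genes in place of 6221. Under DESeq2 2 members were called, DDB2 and ERCC5. Without untreated replicate 1 there were 3 members called and without untreated replicate 2 there were 2. With library size alone GADD45A was also called (0.20, adjusted p = 0.0041) and ERCC3 was not (-0.13, adjusted p = 0.13). The share of calls that were higher was 33.2% with TMM and 55.8% with library size alone.

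**Figure D3:**
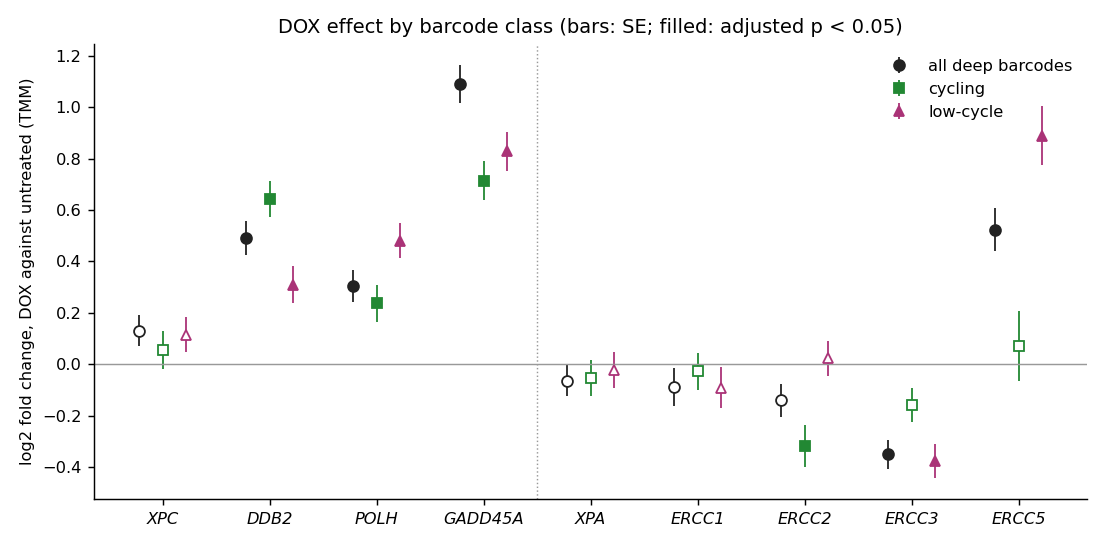
Log2 fold change of DOX against untreated libraries, scaled by TMM, for each member over all deep barcodes (circles), cycling barcodes (squares) and low-cycle barcodes (triangles). Bars are standard errors, 2 libraries against 2, filled symbols had an adjusted p under 0.05 and the dotted line parts p53-induced from other genes. DDB2 was higher in the cycling than in the low-cycle class (0.64 and 0.31), and ERCC5 the other way round (0.07 and 0.89).

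The last comparison asked whether the members varied together with p53 activity inside each library. CDKN1A served as the readout, and the deep barcodes of each library were parted at its own median CDKN1A share of UMIs into CDKN1A-low and CDKN1A-high barcodes. In the untreated libraries CDKN1A was at 1.05 and 2.02 CPM in the low and 53.4 and 55.5 CPM in the high barcodes, and 53.9% and 58.7% of deep barcodes had a CDKN1A UMI at their full depth. In the DOX libraries it was at 27.0 and 18.7 CPM in the low and 488 and 424 CPM in the high barcodes. Each class thus held more CDKN1A with DOX than without, so levels of the conditions within a class are not at equal CDKN1A. The classes of the DOX libraries also differed in cell cycle share, with medians of 10343 and 10098 CPM in the CDKN1A-low barcodes and 3013 and 3924 CPM in the CDKN1A-high ones. In the untreated libraries these medians were 11769 and 11979 CPM and 11281 and 11337 CPM. Cell cycle state and CDKN1A cannot be told apart here.

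With 1 change fitted for all 4 libraries, 6 of 20427 genes were called (0.0294%) and 0 members, although 5 members had an unadjusted p under 0.05 and DESeq2 called 786 genes and 3 members, DDB2, POLH and GADD45A. The change differed between the conditions for 6 members and for 42.4% of all genes (16.7% larger and 25.6% smaller with DOX), so it was also fitted within each condition, a choice made after the values had been seen. Within the untreated libraries all 4 p53-induced genes and none of the other 5 were higher in CDKN1A-high barcodes, against 7.07% of all genes called in either direction, 3.58% called higher and 3.5% called lower. Within the DOX libraries all 4 p53-induced genes, ERCC5, XPA and ERCC1 were higher and ERCC3 was lower, 8 members in all, against 57.4% of all genes called, 26.7% higher and 30.7% lower.

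GADD45A was at 31.8 and 29.4 CPM in the low and 48.6 and 47.1 CPM in the high barcodes of the untreated libraries. In the DOX libraries it was at 41.7 and 35.6 CPM in the low and 143 and 140 CPM in the high barcodes. The change was 0.64 (SE 0.041, edgeR adjusted p = 3.8e-05) without and 1.82 (SE 0.044, edgeR adjusted p = 8.1e-10) with DOX, and the difference of 1.18 (SE 0.061, edgeR adjusted p = 2.4e-07) was itself called. Without the 1% of barcodes with most GADD45A UMIs the changes were 0.40 and 1.19 and their difference 0.79 (edgeR adjusted p = 1.7e-06). POLH behaved in a like way at a smaller size, at 19.5 and 23.0 CPM against 26.0 and 29.8 CPM without DOX and 23.2 and 23.2 CPM against 42.5 and 44.2 CPM with DOX. Its change was larger with DOX by 0.46 (SE 0.054, edgeR adjusted p = 6.6e-05). In CDKN1A-low barcodes the POLH levels of the DOX libraries, 23.2 and 23.2 CPM, were close to those of untreated replicate 2.

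XPC was at 33.7 and 39.1 CPM against 37.6 and 43.8 CPM without DOX and at 39.3 and 36.9 CPM against 54.0 and 56.3 CPM with DOX. Its levels overlapped between the conditions in CDKN1A-low barcodes and not in CDKN1A-high ones. The XPC change was 0.16 without DOX (SE 0.035, edgeR adjusted p = 0.024) and 0.48 with DOX (SE 0.040, edgeR adjusted p = 2.6e-06), and it was larger with DOX by 0.32 (SE 0.053, edgeR adjusted p = 6.9e-04). The XPC change without DOX was called in 1 of 4 alternatives, and not under DESeq2 (adjusted p = 0.22), after thinning (0.18) or without the 1% of barcodes with most GADD45A UMIs (0.067). DDB2 stood apart from the other p53-induced genes. It was at 25.3 and 24.5 CPM against 41.4 and 40.9 CPM without and at 39.3 and 35.8 CPM against 61.1 and 69.5 CPM with DOX. The DDB2 change was 0.73 without and 0.75 with DOX, and their difference was 0.02 (SE 0.081, edgeR adjusted p = 0.85). That difference turned with the library left out, from -0.13 without DOX replicate 2 (adjusted p = 0.043) to 0.22 without DOX replicate 1 (adjusted p = 0.0010). In both CDKN1A-low and CDKN1A-high barcodes DDB2 was at a higher CPM in each DOX library than in each untreated one. CDKN1A itself was also higher with DOX in both classes.

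Among the other 5 genes ERCC5 was at 3.23 and 3.30 CPM against 3.17 and 3.45 CPM without DOX and 3.82 and 3.86 CPM against 6.24 and 6.80 CPM with DOX. ERCC3 was at 33.2 and 37.1 CPM against 33.1 and 34.0 CPM without and 32.9 and 34.1 CPM against 27.4 and 27.6 CPM with DOX. In CDKN1A-low barcodes the ERCC3 levels of the conditions overlapped, and the lowest values were those of the CDKN1A-high barcodes after DOX. The difference of the changes was 0.70 for ERCC5 (SE 0.12, edgeR adjusted p = 9.2e-04), -0.27 for ERCC3 (SE 0.057, edgeR adjusted p = 0.0034) and 0.23 for XPA (SE 0.056, edgeR adjusted p = 0.0077). The ERCC3 and XPA differences were not called under DESeq2 (adjusted p = 0.056 and 0.086). After thinning the ERCC3 difference was 0.01 (adjusted p = 0.94) and that of ERCC5 0.54 (adjusted p = 0.093). Within the DOX libraries ERCC3 was not called after thinning (adjusted p = 0.19), nor was ERCC1 (0.072), and XPA was not called under DESeq2 (0.099) or without the 1% of barcodes with most GADD45A UMIs (0.067).

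**Figure D4:**
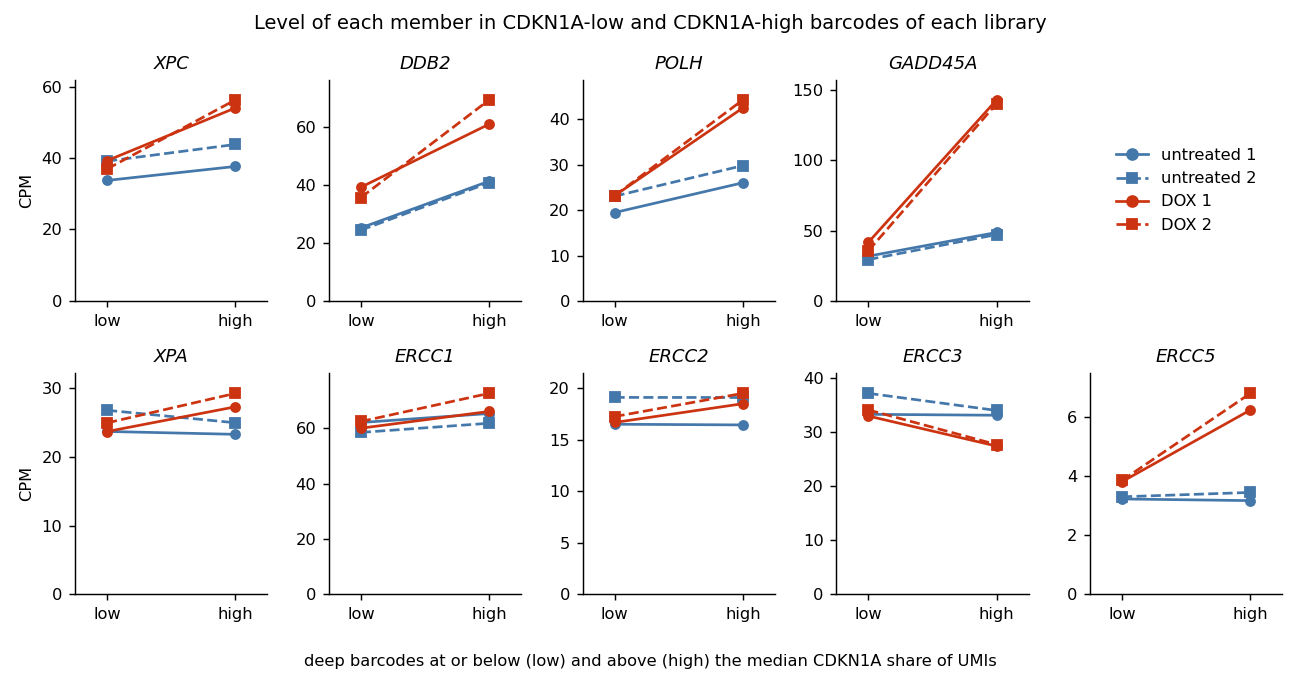
Level of each member in CPM in deep barcodes at or below and above the median CDKN1A share of UMIs, with 1 line for each library and every axis starting at 0. GADD45A rose from 41.7 and 35.6 to 143 and 140 CPM in the DOX libraries and from 31.8 and 29.4 to 48.6 and 47.1 CPM in the untreated ones, while ERCC3 was lower in the high barcodes of the DOX libraries.

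The genes whose UMIs varied most like those of each p53-induced member across single barcodes were sought among all genes. Likeness was the Pearson correlation of the logarithm of thinned UMIs over deep barcodes, averaged over the 4 libraries, among 10332 genes with a mean of at least 0.1 thinned UMI in every library. The points share library and depth, and the values are a description. GADD45A was most like CDKN1A (0.297), ATF3 (0.288) and BBC3 (0.256), of which ATF3 went from 0.125 and 0.116 in the untreated to 0.478 and 0.432 in the DOX libraries. DDB2 was most like MDM2, NEAT1 and CDKN1A (0.217, 0.217 and 0.214). POLH was most like NEAT1, MDM2 and CDKN1A (0.196, 0.188 and 0.171), and XPC like MDM2, GDF15 and CDKN1A (0.148, 0.127 and 0.124). CDKN1A was thus among the closest 3 genes for all 4 members, and MDM2 for 3 of them.

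Barcodes outside the deep set gave other levels. Among barcodes with at least 20000 UMIs and a mitochondrial share of 8% or more, which numbered 395 and 173 in untreated and 579 and 651 in DOX libraries, DDB2 was at 51.3 and 60.0 CPM without and 82.1 and 88.3 CPM with DOX. POLH was at 32.3 and 39.0 CPM without and 67.8 and 59.1 CPM with DOX. For both genes each value was above that of the deep barcodes of the same library, and the same held for XPC, ERCC2 and ERCC5. GADD45A in these barcodes, at 61.9 and 72.7 CPM with DOX, was below its level of 97.3 and 92.5 CPM in deep DOX barcodes. Without the 1% of deep barcodes with most GADD45A UMIs that deep level was 65.7 and 60.7 CPM. In the untreated libraries GADD45A was at 43.9 and 42.4 CPM in these barcodes, above its deep level of 40.8 and 38.4 CPM. With the limit raised to 20% the count of members called lower went from 1 to 4, since XPA, ERCC1 and ERCC2 joined ERCC3, and 64.3% of all genes were called. These calls are on the TMM scale, relative to the bulk of the genes. In CPM, ERCC2 in barcodes with a share of 8% or more was at 20.3 and 22.3 without and 23.8 and 23.3 with DOX. In the DOX libraries 5164 and 4729 barcodes had fewer than 5000 UMIs and a mitochondrial share under 8%. There GADD45A was at 151 and 173 CPM, CDKN1A at 411 and 367 CPM and POLH at 22.3 and 20.4 CPM. The untreated libraries had 239 and 129 such barcodes. In them GADD45A was at 56.0 and 67.0 CPM, CDKN1A at 38.0 and 44.7 CPM and POLH, with 3 and 12 UMIs, at 6.01 and 44.7 CPM.

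The rest of the pathway moved mainly down. Of 58 other genes in 7 lists, 42 were lower and 3 higher with DOX in deep barcodes, with a median log2 fold change of -0.45, against 26.4% of all genes lower and 28.2% higher and a median of 0.04. In cycling barcodes 21 were lower and 2 higher, with a median of -0.16, against 13.9% of all genes lower and 13.5% higher and a median of 0.02. The S phase genes (41 of 41 lower, median -0.79) and the G2/M genes (54 of 54 lower, median -0.82) moved with them in deep barcodes, and their part in these counts was not tested. Of these genes 5 (PCNA, POLD3, RFC2, RPA2 and USP1) were also in the cell cycle lists that parted the classes. Damage recognition had 0 of 7 genes higher and 4 lower, among them RAD23B (-0.66), a partner of XPC, and CUL4B (-0.39), the scaffold of the ligase that holds DDB2. Its 7 genes did not include XPC and DDB2. Transcription-coupled repair had 1 of 6 higher, ERCC6 (0.24), which encodes CSB, and 4 lower, led by ELOF1 (-0.62), USP7 (-0.57) and XAB2 (-0.49). In TFIIH and its kinase module 5 of 8 were lower and 0 higher, with GTF2H2 at -0.63, GTF2H3 at -0.55 and GTF2H1 at -0.44, beside -0.35 for the member ERCC3.

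Incision and RPA had 3 of 4 lower, the single-strand binding proteins RPA2 (-0.76), RPA1 (-0.58) and RPA3 (-0.48), while ERCC4, the partner of ERCC1, did not pass (-0.12, edgeR adjusted p = 0.12). Gap filling and ligation had 16 of 17 lower, led in adjusted p by POLE2 (-0.79), RFC2 (-0.82) and RFC3 (-0.77), and 1 higher, POLD4, the small subunit of polymerase delta (1.23, SE 0.063, edgeR adjusted p = 2.6e-06). POLD4 was also higher in cycling barcodes (0.59), where 9 of the list were lower. Of 14 further genes of translesion bypass 10 were lower and 0 higher, led by USP1 (-0.68), RAD18 (-0.64) and MAD2L2 (-0.46), and in cycling barcodes 1 was lower, RAD18 (-0.20). POLH, the member that acts in bypass, was thus higher where no other gene of the list was. The GADD45 family had 1 of 2 higher, GADD45G (0.98), while GADD45B was at -0.02 and did not pass.

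**Figure D5:**
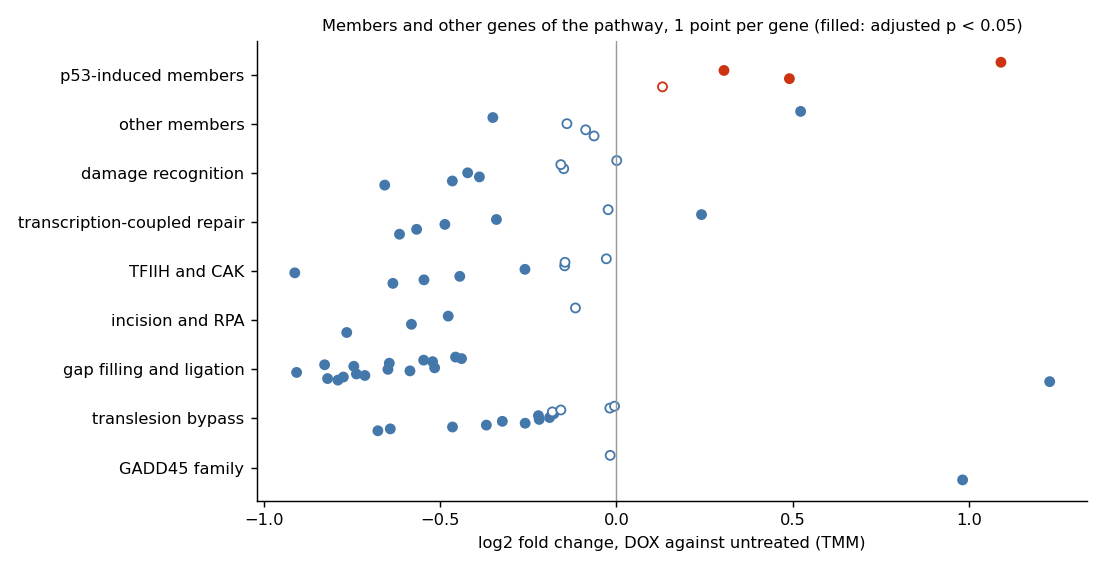
Log2 fold change of DOX against untreated libraries, scaled by TMM, for the members and for the other genes of the pathway, with 1 point for each gene and 1 line for each list. Filled points had an adjusted p under 0.05, and the p53-induced members are in red. The gap filling list lies below 0 except for POLD4 at 1.23, and 10 of 14 bypass genes were lower.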

How the data were processed

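The deposited files are raw UMI counts per gene and barcode, aligned to hg19 by the authors. The file headers name Cell Ranger 7.2.0, while the submitters' processing notes name version 7.0.0 beside bedtools 2.25, SAMtools 1.2 and CASAVA 1.8.2. For each DOX library the authors forced the caller to keep 8000 barcodes. The annotation release and whether intronic reads were counted are not given in the sources used here. Positions come from GENCODE lifted to GRCh37.

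The 9 genes and the gene lists were chosen with earlier results of these data known. The text names all 9 genes, up to 3 genes of each list and direction by adjusted p, and the 3 most alike genes of each p53-induced member. One gene that this rule names is not reported here. Counts were summed per library and class, filtered with filterByExpr, scaled by TMM and tested with edgeR 4.0.16 (quasi-likelihood, R 4.3.3), with DESeq2 1.42.0 as the alternative, and Python 3.11.15 did the rest. Depth was 102333220 to 291488794 UMIs per library in deep barcodes. No doublet caller was run, and the 5% of barcodes with most UMIs were left out as an alternative. Thinning drew UMIs without replacement. Replicates differed beyond counting, with a chi-square per degree of freedom of 46.7 between the untreated and 7.81 between the DOX libraries. On simulated counts for DOX against untreated (21194 genes), 58.2% of 1.5-fold, 71.9% of 2-fold and 86.4% of 4-fold changes were called, and 2.74% of calls were unchanged genes. The simulation changed 200 genes, evenly up and down, and took its spread between libraries from the fit to these data. In the data 54.6% of genes were called, so these rates check the procedure and do not give the error rates of the data.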

Additional observations from a re-analysis of the deposited data

Results flagged for a closer look

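The DOX effect differed between low-cycle and cycling barcodes for 5 members, against 30.8% of all genes (10.2% higher and 20.6% lower), by edgeR's test of the difference, low-cycle minus cycling: DDB2 at -0.35, ERCC3 at -0.24, POLH at 0.22, ERCC2 at 0.31 and ERCC5 at 0.80 on the log2 scale. The low-cycle class had a lower cell cycle share in DOX than in untreated libraries, and its part in these differences was not tested.

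The change from CDKN1A-low to CDKN1A-high barcodes differed between DOX and untreated libraries for 6 members, against 42.4% of all genes (16.7% larger and 25.6% smaller with DOX), by the same test: XPC at 0.32, POLH at 0.46, GADD45A at 1.18, XPA at 0.23, ERCC5 at 0.70 and ERCC3 at -0.27. In CPM these barcodes were further apart in CDKN1A with DOX (27.0 and 18.7 against 488 and 424) than without (1.05 and 2.02 against 53.4 and 55.5). As a ratio of high to low, which is what a log2 change measures, they were closer with DOX than without. With 2 libraries per condition no library could be tested for standing apart from its group.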

How the results depend on the processing

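Over all alternatives, 796 of 900 log2 fold changes of single members kept their direction and their side of the threshold, 40 were no longer called, 28 became called and 36 changed sign. In deep barcodes GADD45A (0.67 to 1.304), DDB2 (0.41 to 0.66), POLH (0.24 to 0.47), ERCC5 (0.46 to 0.69) and ERCC3 (-0.43 to -0.18) kept their calls in every alternative run. ERCC5 had the fewest UMIs of the members, and the cause of the shifts named here was not tested.

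Members called for DOX against untreated deep barcodes went from 5 to 8 with a mitochondrial limit of 20%. After thinning to 20000 UMIs the cycling class had 3396 genes and 2 members called in place of 5318 and 4, the difference between the classes 3289 and 0 in place of 6221 and 5, and the difference between the CDKN1A changes 5157 genes in place of 8654. DESeq2 gave 3434 genes and 2 members for the difference between the classes and 5373 genes for that of the CDKN1A changes. For the single CDKN1A change (6 genes, 0 members) there were 786 genes and 3 members with DESeq2, 19 and 1 without the filter on low counts, 16 and 1 with the limit of 20% and 13 and 1 after thinning. Within the untreated libraries it was 544 genes with DESeq2 and 691 after thinning in place of 1445, and within the DOX libraries 7674 after thinning in place of 11730. The mean share of barcodes with a UMI was higher with DOX by 2.71 points without thinning and 7.06 points at 10000 UMIs for the p53-induced genes (7.49 as reported), and by 0.722 points without thinning for the others (-0.254 as reported).

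Leaving out 1 library at a time gave 5 to 7 members for deep barcodes (7 without untreated replicate 2, where XPC and ERCC1 joined), 3135 to 6337 genes for the cycling class, 2954 to 5982 genes and 2 to 6 members for the difference between the classes, 5617 to 9489 genes for that of the CDKN1A changes and 1 to 6 genes for the single CDKN1A change. The lowest counts came without DOX replicate 2, without untreated replicate 1 (2 members without untreated replicate 2), without untreated replicate 1 and without DOX replicate 1, in this order. In these the sign changed for the cycling class in XPC (-0.014 to 0.13), ERCC1 (-0.10 to 0.061) and ERCC5 (-0.14 to 0.24), for the low-cycle class in XPA (-0.070 to 0.018), for the difference between the classes in XPC (-0.033 to 0.10) and XPA (-0.052 to 0.14) and for the difference of the CDKN1A changes in DDB2 (-0.13 to 0.22). The lone library of a condition was then assumed to vary like the others.

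Other changes of sign were in values that had missed the threshold in the main result, apart from the CDKN1A difference of ERCC3. With library size alone XPA was at 0.10, 0.041 and 0.16 (deep, cycling and low-cycle), ERCC1 at 0.083, 0.071 and 0.095, ERCC2 at 0.025 in deep barcodes, and the class difference of ERCC1 at 0.023. After thinning XPA was at 0.046, 0.018 and 0.080, ERCC2 in low-cycle barcodes at -0.082, the class difference of GADD45A at -0.18 and the difference of CDKN1A changes of ERCC3 at 0.014. With the limit of 20% ERCC2 in low-cycle barcodes was at -0.016, the class differences of GADD45A and XPA at -0.080 and -0.051 and the CDKN1A difference of DDB2 at -0.088. With the upper limits of the study's methods the class differences of GADD45A and XPA were at -0.040 and -0.040, and without the 5% of barcodes with most UMIs at -0.022 and -0.023. With the cycle limit at the medians ERCC2 in low-cycle barcodes was at -0.065 and the class difference of XPA at -0.0048. Without the 1% of barcodes with most GADD45A UMIs, added after seeing the data, the class difference of XPA was at -0.045 and the untreated CDKN1A changes of ERCC2 and ERCC5 at 0.010 and -0.0050.

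With the replicate block 12311 genes were called in deep, 6704 in cycling and 10371 in low-cycle barcodes, and no call of a member changed. The replicates share only a number: deviations of same-numbered libraries correlated at 0.0657 over 15693 genes.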
